A study of Arabidopsis thaliana with 4 samples.

Results

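Long protected calls were the nucleosome calls on the chromosome arms of Arabidopsis thaliana whose listed size exceeded 200 bp. They were picked within each library by that size and by a position more than 2.5 Mb from the points 15, 3.6, 14, 4 and 12 Mb on chromosomes 1 to 5, which were taken as the middles of the pericentromeres and were not checked against the genome build of the lists. The rule found 28934 long calls among 1019972 arm calls in 4 libraries, and 1253289 calls were listed in all. Arm calls of 130 to 160 bp, 518945 in number, served as the reference class.

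The libraries were made from inflorescences with unopened buds of Landsberg erecta (Ler) plants, the control, and of top1a-2 plants, which carry a mutation of the topoisomerase I gene TOP1α in the same ecotype. Each genotype had 2 libraries, and the sample titles name the mutant libraries after the gene. Nuclei were digested with micrococcal nuclease, DNA from a gel band near 150 bp was sequenced, and 1 list of calls was deposited for each library. The sources used here do not say whether the libraries of a genotype came from separate plants, so the tests between genotypes measure only the spread between these libraries, which may be technical.

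A nucleosome is DNA wrapped around a core of histone proteins, and neighbouring nucleosomes are joined by linker DNA. Micrococcal nuclease digests the linker faster than the wrapped DNA, so a protected stretch marks a nucleosome or another bound particle. Topoisomerase I nicks 1 strand of DNA and relaxes the supercoils that accumulate when polymerases move along it.

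For every call the lists name where it lies, how far that place is spread (its fuzziness, in bp), a size in bp, a confidence score and votes on the forward and on the reverse strand. What the score and the votes count is not stated in the labels or headers. The median size of arm calls was 144.9 and 142.7 bp in Ler replicates 1 and 2 and 144.7 and 142.9 bp in top1a-2 replicates 1 and 2. The read depth is not known. The lists held 315744 and 286541 calls in Ler and 335395 and 315609 in top1a-2, so that Ler replicate 1 and top1a-2 replicate 2 had lists of nearly the same length.

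Long calls made up a larger share of the arm calls in both Ler libraries than in either mutant library. There were 9967 long calls in Ler replicate 1, or 3.89% of its arm calls, and 7279 in Ler replicate 2, or 3.15%. There were 6642 in top1a-2 replicate 1, or 2.41%, and 5046 in top1a-2 replicate 2, or 1.96%. The mean was 3.52% ± 0.519 (SD, n = 2) in Ler and 2.19% ± 0.317 in top1a-2, a ratio of 1.61, and the libraries of the genotypes did not overlap. The exact permutation test, two-sided, gave p = 0.333, the smallest value that 2 libraries against 2 can reach (0.361 after Benjamini-Hochberg adjustment over 13 tests), so no genotype difference in this report could pass a threshold of 0.05. All genotype differences below are therefore given as values, with whether the libraries overlapped.

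Over the whole arms the size distribution was wider on both sides in Ler. Calls under 100 bp made up 5.33% and 4.51% of arm calls in Ler and 3.79% and 3.14% in top1a-2. The SD of the size was 31.1 and 29.1 bp in Ler and 27.3 and 25.8 bp in top1a-2, without overlap, while the medians interleaved. The long class is thus 1 tail of a distribution whose centre lay at the same size in both genotypes. Most members were close to the border: 57.2% to 63.8% of the long calls of a library were at most 220 bp, and 11.6% to 14.4% exceeded 250 bp. Just outside the border, calls of over 195 up to 200 bp had a median score of 1.05 and 1.14 in Ler and 0.958 and 0.942 in top1a-2. Just inside it, calls of over 200 up to 205 bp had a median score of 1.09 and 1.21 in Ler and 0.940 and 1.01 in top1a-2, so that the members did not begin with a step.

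The share of long calls rose with the distance from the chromosome start, steeply on chromosomes 1, 3 and 5 and, in top1a-2, only slightly on chromosomes 2 and 4. In the first 5 Mb of the chromosomes 0.741% and 0.553% of arm calls were long in Ler, against 0.992% and 0.687% in top1a-2. Between 5 and 15 Mb the shares were 2.22% and 1.71% in Ler and 1.70% and 1.33% in top1a-2. Beyond 15 Mb they were 6.91% and 5.71% in Ler and 3.74% and 3.15% in top1a-2. The share beyond 15 Mb over that of the first 5 Mb was 9.33 and 10.3 in Ler (9.83 ± 0.706, SD, n = 2) and 3.77 and 4.59 in top1a-2 (4.18 ± 0.576), without overlap. These 3 classes of position were chosen after the gradient had been seen.

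**Figure D1:**
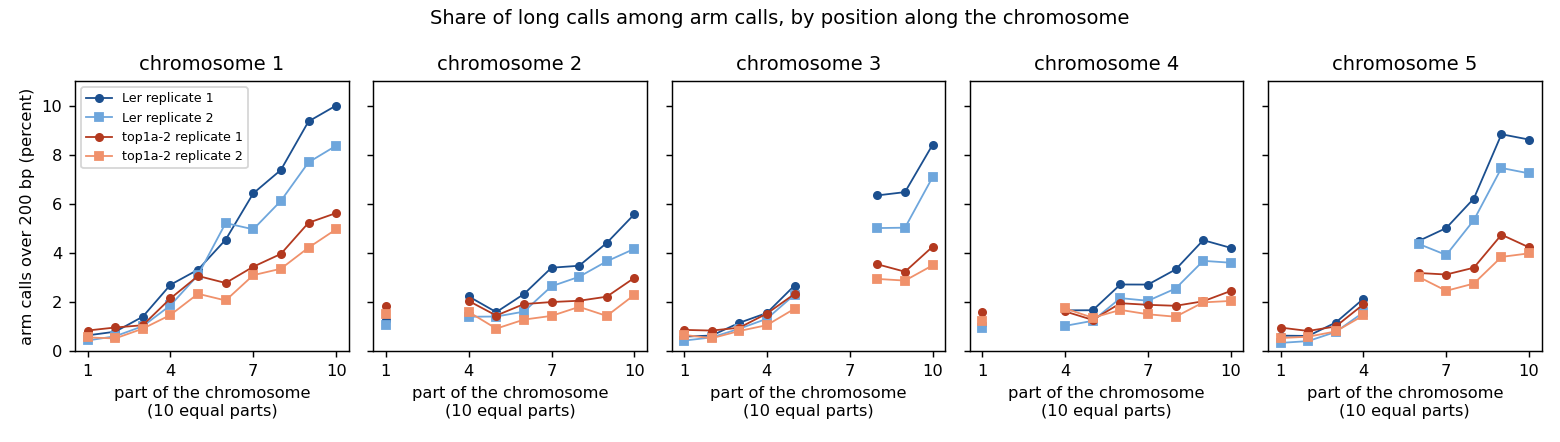
Share of arm calls over 200 bp (percent, vertical axis) in 10 equal parts of a chromosome from its start (horizontal axis), 1 panel per chromosome and 1 line per library; parts with fewer than 500 arm calls in a library, most of them pericentromeric, are left out. On chromosome 1 the share climbs from 0.648% to 10.0% in Ler replicate 1 between the first and the last part, and the lines of the genotypes lie close together in the early parts.

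The gradient ran on from one arm to the other across the pericentromere. On chromosome 1 the share after the pericentromere was 3.41 to 6.29 times that before it over the 4 libraries. The ratio was 2.85 to 5.39 on chromosome 3 and 3.51 to 8.39 on chromosome 5. It was lower on chromosomes 2 and 4, whose pericentromeres lie near the start, at 1.01 to 2.60 and 1.18 to 2.80, and it exceeded 1 in 4 of 4 libraries on each chromosome. At 17.5 to 18 Mb, a stretch that is near the end of chromosomes 2 and 4 and well inside the other chromosomes, the share in Ler replicate 1 was 4.61% on chromosome 1, 4.64% on chromosome 2, 5.82% on chromosome 3, 5.48% on chromosome 4 and 5.96% on chromosome 5. In top1a-2 replicate 2 it was between 1.74% and 2.82% there. The range over the chromosomes at this coordinate was narrow beside the rise along each of the longer chromosomes.

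Calls under 100 bp rose in the same way, by 8.77 and 9.46 times from the first 5 Mb to beyond 15 Mb in Ler and by 3.97 and 4.34 times in top1a-2. They were more frequent in top1a-2 in the first 5 Mb, with 1.45% and 1.13% against 1.06% and 0.839% in Ler, without overlap. The rise thus held for both tails of the size distribution. What makes the sizes spread with the coordinate was not tested, and no other readout of these positions was used.

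The genotype difference in long calls grew along the same axis. In the first 5 Mb top1a-2 was higher than Ler by 0.192 percentage points, with overlap between the libraries (exact permutation p = 0.667). Between 5 and 15 Mb it was lower by 0.452 points, with 1.71% against 1.70% in the closest libraries, and it was lower by 2.86 points beyond 15 Mb. Of 918 windows of 100 kb with at least 100 calls in each library, both Ler libraries were above both top1a-2 libraries in 442 (48.1%), and the reverse held in 77 (8.39%). In the first 5 Mb the counts were 19 and 37 of 176 windows. Beyond 15 Mb they were 306 and 1 of 380. The direction of the difference over the whole arms was thus that of the later coordinates.

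**Figure D2:**
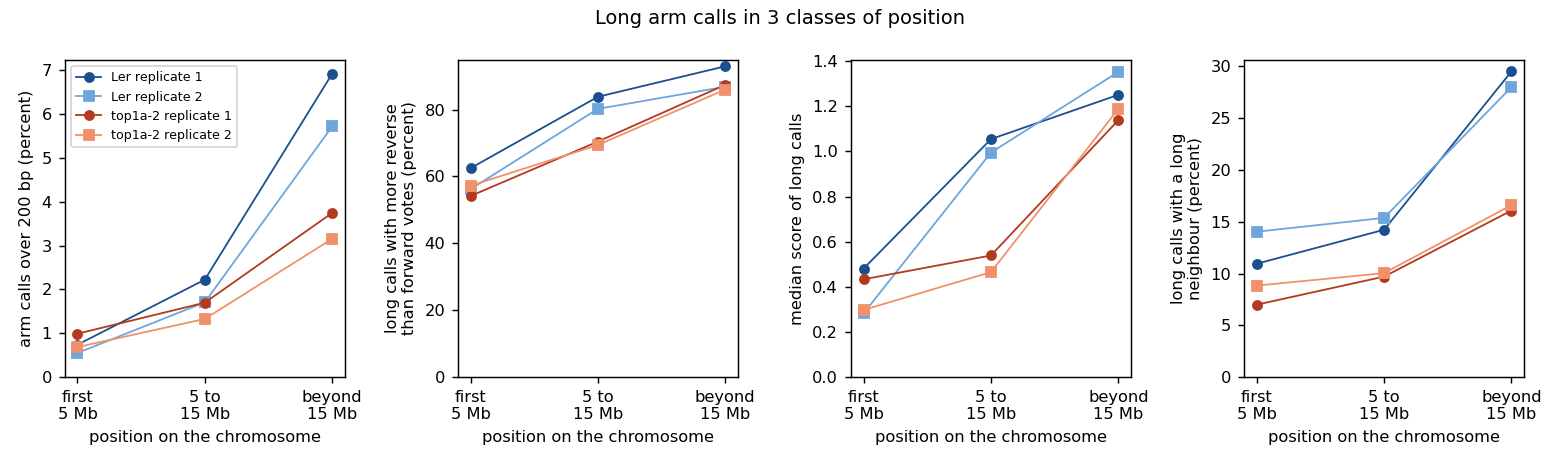
Values of the long arm calls (vertical axes: share of arm calls, share with more reverse than forward votes, median confidence score, share with a long neighbour) in 3 classes of position on the chromosome (horizontal axes), 1 line per library. All 4 values are higher beyond 15 Mb than in the first 5 Mb in every library, and the share of arm calls is 0.553% to 0.992% in the first class and 3.15% to 6.91% in the last.

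The windows at the ends of the order showed the range. No library had a long call at 1300000 to 1400000 on chromosome 1, among 251 to 287 calls per library. The windows from 1100000 on chromosome 5 and from 3000000 on chromosome 3 each held 1 long call, in top1a-2 replicate 1. The highest mean share, 13.0%, was at 26400000 to 26500000 on chromosome 1, with 17.5% and 15.8% in Ler and 10.5% and 8.30% in top1a-2. The next windows were those from 29600000 and from 18500000 on the same chromosome, with means of 12.4% and 10.8%. Across the 918 windows the shares of 2 libraries had a Pearson r of 0.796 to 0.896 (Spearman rho 0.767 to 0.888). After the mean of each 1 Mb bin was taken off, r was 0.451 to 0.588. The windows share the gradient along the chromosome, so these values describe it and carry no p.

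In the pericentromeres 5.91% and 5.31% of calls were long in Ler and 5.01% and 4.57% in top1a-2. The share there exceeded that of the arms by 2.02, 2.16, 2.60 and 2.60 percentage points in Ler replicates 1 and 2 and top1a-2 replicates 1 and 2, a mean of 2.34 points (higher in 4 of 4 libraries, exact sign-flip permutation p = 0.13, the smallest that 4 pairs allow). When low scores, under the lower quartile of a library, were removed, the mean difference fell to 0.483 points, with 4.35% against 4.31% and 3.48% against 3.45% in Ler and 3.17% against 2.16% and 2.63% against 1.78% in top1a-2. It fell to 0.878 points without calls whose votes lay over 90% on 1 strand. Within 5 Mb of the middles of chromosomes 1, 3 and 5, where arm calls lie on both sides, it was 3.11 points. The genotype difference in the pericentromeres was -0.821 points, and -0.521 points without Ler replicate 1.

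Long calls were dominated by reverse votes. More reverse than forward votes were listed for 89.7% and 84.4% of the long calls in Ler and for 80.1% and 79.6% in top1a-2. Among reference calls the share was between 49.0% and 50.8% in the 4 libraries. Calls under 100 bp leaned the other way, with 11.2% and 14.1% in Ler and 19.6% and 20.4% in top1a-2. The share rose from class to class of size up to 220 bp, so the imbalance ran with the size and not with the long class alone. In the first 5 Mb it was weak among long calls, at 62.5% and 56.2% in Ler and 54.2% and 57.2% in top1a-2, and beyond 15 Mb it was 86.0% to 92.9%.

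**Figure D3:**
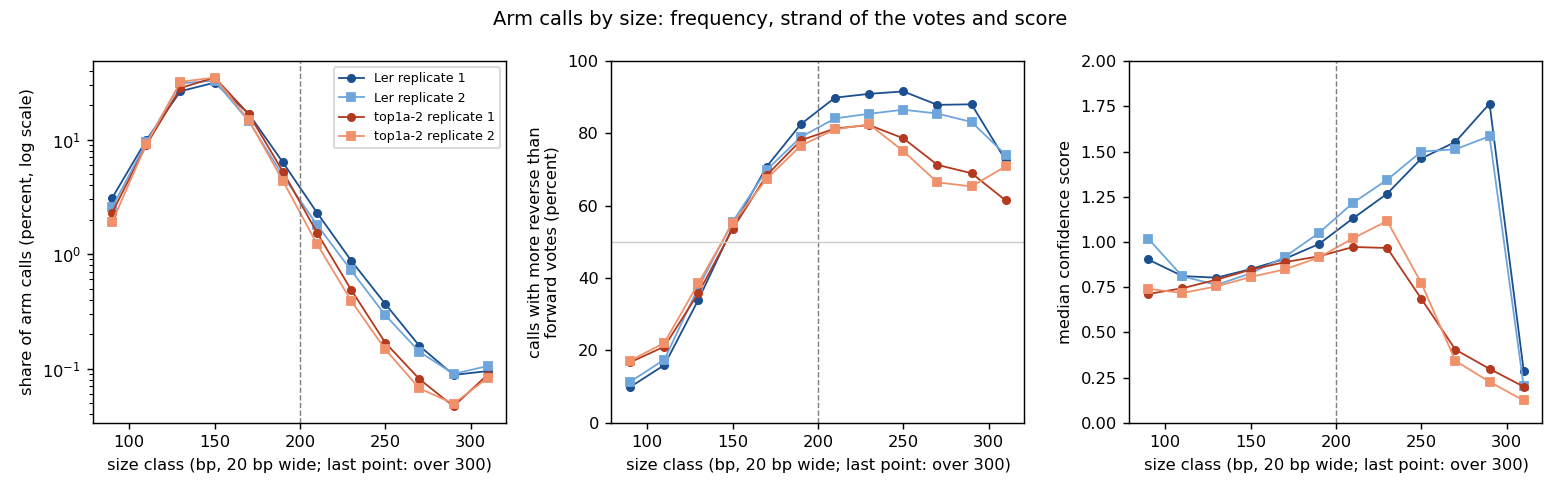
Arm calls in classes of size 20 bp wide (horizontal axes, the last point holds calls over 300 bp), 1 line per library; left, share of arm calls in percent on a log axis; centre, share with more reverse than forward votes in percent; right, median confidence score. The dashed line marks 200 bp. The share with more reverse votes passes 50% near the reference sizes, and the score of the longest classes falls earlier in top1a-2 than in Ler.

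A part of the long calls had votes almost wholly on 1 strand. Over 90% of the votes lay on 1 strand in 11.4% and 8.42% of the long calls in Ler and in 23.9% and 17.5% in top1a-2, against 0.249% to 1.21% of reference calls. These calls had a low median score of 0.454 and 0.184 in Ler and 0.345 and 0.180 in top1a-2. The remaining long calls had 1.26 and 1.34 in Ler and 1.12 and 1.13 in top1a-2. Long calls thus held a well-scored majority and a poorly scored part with votes on 1 strand, and the latter was a larger share in the mutant libraries. Without calls of this kind the share of long calls on the arms was 3.53% and 2.92% in Ler and 1.90% and 1.65% in top1a-2.

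Over all members, the median score was 1.20 and 1.27 in Ler and 0.913 and 0.954 in top1a-2, against 0.792 to 0.837 for reference calls. Scores under the lower quartile of all arm calls were held by 15.8% and 16.6% of long calls in Ler and 32.6% and 31.5% in top1a-2. The genotype difference in the median score was -0.303, without overlap, and -0.646 above 220 bp and -0.522 between 5 and 15 Mb, also without overlap. It shrank to -0.0695 without those low scores and to -0.0163 in the first 5 Mb, with overlap of the libraries in both cases. In the first 5 Mb long calls scored low in every library, with medians of 0.481 and 0.283 in Ler and 0.434 and 0.298 in top1a-2. Beyond 15 Mb they scored 1.25 and 1.35 in Ler and 1.14 and 1.19 in top1a-2. Reference calls had 0.870 to 0.930 in the first 5 Mb and 0.731 to 0.798 beyond 15 Mb, so long calls scored below the reference class in the first stretch and above it in the last in every library. Between 5 and 15 Mb the genotypes parted: long calls had 1.05 and 0.995 in Ler, above the reference values of 0.837 and 0.796, and 0.539 and 0.466 in top1a-2, below the reference values of 0.827 and 0.787.

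The votes summed over both strands had a median of 0.285 and 0.376 for long calls in Ler and of 0.110 and 0.141 in top1a-2. Reference calls had 0.177 and 0.210 in Ler and 0.126 and 0.141 in top1a-2. Over the whole arms long calls thus had more votes than reference calls in both Ler libraries, fewer in top1a-2 replicate 1 and about as many in top1a-2 replicate 2, but the direction turned with the position. Long calls of the first 5 Mb had 0.0483 and 0.0215 in Ler and 0.0271 and 0.0189 in top1a-2, below the reference values of 0.144 to 0.261 in every library. Beyond 15 Mb they had 0.314 and 0.422 in Ler and 0.177 and 0.219 in top1a-2, above the reference values of 0.115 to 0.177 in each library's own comparison.

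Long calls were less sharply placed than reference calls. Their mean fuzziness was 41.9 and 42.8 bp in Ler and 42.2 and 42.8 bp in top1a-2, against 38.6 and 39.2 bp and 36.7 and 38.2 bp for reference calls. Calls of over 180 up to 200 bp had 42.4 and 43.7 bp in Ler and 41.9 and 43.7 bp in top1a-2. A higher fuzziness than in the reference class was thus not particular to the long calls. The excess over the reference was 3.31 and 3.53 bp in Ler and 5.49 and 4.66 bp in top1a-2, without overlap and with a difference of 1.66 bp. The fuzziness of the long calls themselves overlapped between the genotypes (a difference of 0.165 bp, exact permutation p = 0.667), so the larger excess came with a lower fuzziness of the reference calls of the mutant. The fuzziness varied more among long calls, with an SD over calls of 9.45 and 10.4 bp in Ler and 13.4 and 13.2 bp in top1a-2, against 7.14 to 8.99 bp in the reference class.

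Over the whole arms long calls stood farther from both neighbours than reference calls did. The median distance to the nearer neighbour was 342 and 387 bp in Ler and 301 and 328 bp in top1a-2, and for reference calls 292 and 318 bp and 264 and 288 bp. The median distance to the farther neighbour was 432 and 487 bp in Ler and 407 and 433 bp in top1a-2, and for reference calls 372 and 413 bp and 354 and 377 bp. The nearer neighbour lay 37 to 69 bp farther away than in the reference class in the 4 libraries, while the median size of long calls was 68.7 to 72.4 bp larger. Calls of over 180 up to 200 bp had a nearer distance of 321 and 365 bp in Ler and 290 and 322 bp in top1a-2. A larger distance than in the reference class was thus not particular to the long calls. Calls over 300 bp had 293.5 and 342 bp in Ler and 263.5 and 268 bp in top1a-2, the latter no higher than the reference values. The genotype difference in the nearer distance was -50 bp and was -27.5 bp without Ler replicate 2. The nearer distance of long calls in the first 5 Mb was 296 and 293.5 bp in Ler and 279.5 and 294 bp in top1a-2, against 297 and 336 bp and 265 and 294 bp for reference calls, so that Ler replicate 2 alone was clearly shorter.

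Neighbours under 200 bp away were rarer for long calls over the whole arms. The nearer neighbour was under 200 bp away for 6.34% and 4.92% of long calls in Ler and for 12.1% and 9.83% in top1a-2, against 13.7% and 11.4% and 20.9% and 15.6% of reference calls. The order turned in the first 5 Mb in both replicate 2 libraries, with 16.1% of long against 10.2% of reference calls in Ler and 20.6% against 15.3% in top1a-2. Overlap, a distance below the mean of both sizes, held for 5.73% and 4.73% of long calls in Ler and 9.76% and 8.13% in top1a-2. For reference calls it was 1.98% and 1.89% in Ler and 3.68% and 2.55% in top1a-2. A larger size widens this limit by definition, so the higher overlap is no separate trait of the long calls.

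Long calls clustered with each other. At least 1 of the 2 neighbours was also long for 25.4% and 24.8% of the long calls in Ler and for 13.6% and 14.3% in top1a-2. For reference calls, weighted to the 1 Mb bins in which the long calls lie, the share with a long neighbour was 9.89% and 7.90% in Ler and 5.62% and 4.58% in top1a-2. The weighting takes off the gradient along the chromosome, and the long calls remained above it in 4 of 4 libraries. The excess fell with the rank of the following call. In Ler replicate 1, 14.4% of the first calls after a long call were long, 7.86% of the fifth, 6.46% of the tenth and 7.02% at rank 20, against 5.10%, 5.75%, 6.02% and 6.08% after weighted reference calls. In Ler replicate 2 the tenth call was long in 6.45% against 4.95%, and in top1a-2 replicate 2 in 3.03% against 2.72%. In top1a-2 replicate 1 the share fell from 7.41% to 3.15% at rank 20, against 2.92% and 3.17%. Neighbours under 100 bp in size were also more frequent, at 13.3% and 13.9% of long calls in Ler and 11.4% and 11.3% in top1a-2. Reference calls, here not weighted to the bins, had 6.98% and 5.43% in Ler and 5.71% and 4.39% in top1a-2.

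**Figure D4:**
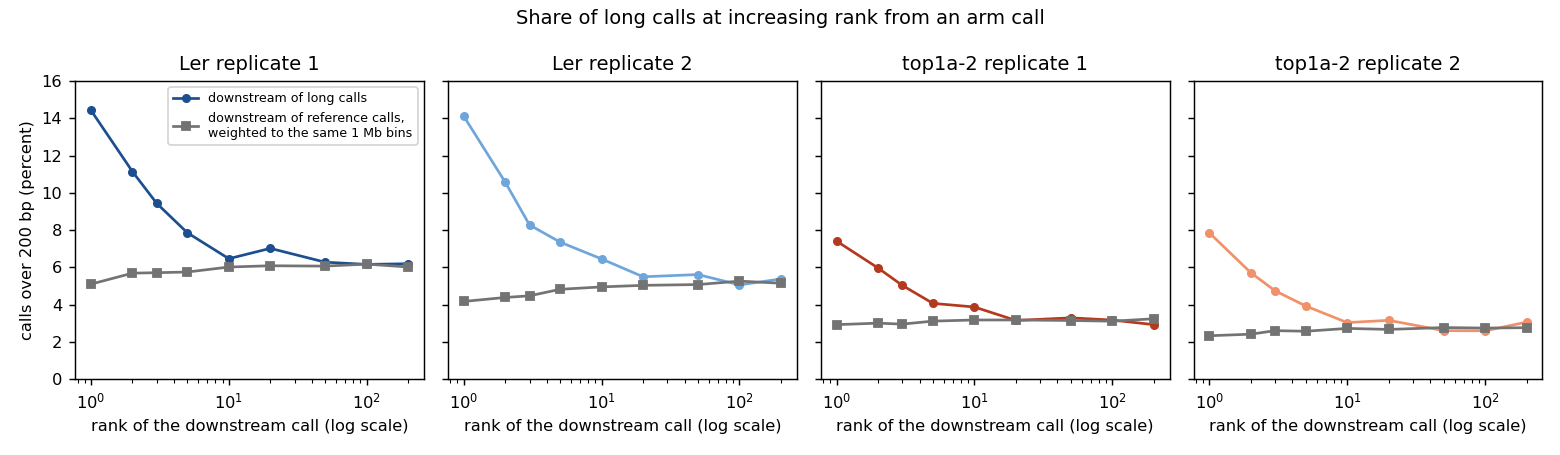
Share of calls over 200 bp (percent, vertical axes) at a given rank downstream of a long call (coloured) and of a reference call weighted to the same 1 Mb bins (grey); the horizontal axes give the rank on a log scale, and each panel is 1 library. The coloured line starts at 7.41% to 14.4%, above the grey line in each panel, and falls towards it with the rank; in 3 of 4 libraries it is still slightly above at the rank of 20.

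Unbroken runs of 3 or more long calls numbered 228 and 176 in Ler and 58 and 48 in top1a-2. They were among 8529 and 6252 runs in Ler and 6150 and 4650 in top1a-2, single calls included. Ler had the larger share of long calls, and the part of that share in these counts was not tested. The longest run in Ler replicate 1 held 14 calls at 15852485 to 15861561 on chromosome 5, with a median size of 289.4 bp. Ler replicate 2 had 13 in a row at 15852290 to 15859557, and top1a-2 replicate 2 had 8 at 15855198 to 15858608. The longest run was therefore at the same place in 3 of 4 libraries. In top1a-2 replicate 1 no run exceeded 5 calls.

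At the position of a long call another library mostly listed 1 call. Over the 12 ordered pairs of libraries, 70.6% to 76.1% of long calls had 1 call of the other library within 150 bp, 11.5% to 23.3% had none, and 6.11% to 12.9% had 2 or more. For reference calls the ranges were 75.6% to 80.6%, 9.74% to 20.1% and 4.13% to 10.3%. Averaged over the other libraries, none was more frequent for long than for reference calls by 0.30 and 3.84 points in Ler and by 2.68 and 4.90 points in top1a-2, but less frequent by 1.36 points on average without those low scores. Having 2 or more was more frequent by 2.72 and 1.89 points in Ler and by 2.29 and 2.03 points in top1a-2, and in 12 of 12 ordered pairs. Each of these differences had the same sign in 4 of 4 libraries (exact sign-flip permutation p = 0.13 each, adjusted 0.361).

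Where another library had 2 or more calls, they lay on both sides of the long call in 98.5% to 99.7% of cases, against 96.6% to 98.2% at reference calls, and their distance had a median of 198.5 to 215 bp over the pairs. For reference calls the median of that distance was 184 to 192 bp over the pairs. The window of 150 bp leaves little room for 2 calls on the same side, and it also caps the distance between calls on both sides. The replicate of the same genotype listed 2 or more for 6.18% and 8.08% of long calls in Ler and for 9.02% and 12.2% in top1a-2. Reference calls ran the same way, with 4.5% and 6.80% in Ler and 6.34% and 9.46% in top1a-2. These counts depend on the window: within 100 bp the excess of long over reference calls was 0.0838 points in place of 2.23.

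The nearest call of the other library was also long far more often than at reference calls. It was long for 15.8% to 34.1% of long calls over the 12 ordered pairs and for 0.783% to 2.01% of reference calls. Against reference calls weighted to the same 1 Mb bins, with 1.26% to 3.38%, the ratio was 9.20 to 12.7. Per library the difference from the unweighted reference was 19.1 and 22.5 points in Ler and 20.9 and 24.5 points in top1a-2, higher in 4 of 4 libraries (mean 21.8 points, exact sign-flip permutation p = 0.13). Libraries of the same genotype gave 16.1% to 34.1% and libraries of the other genotype 15.8% to 31.1%, so the recurrence crossed the genotypes.

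The size of the nearest call, long ones included, had a median of 166 to 189 bp over the pairs, against 143 to 147 bp at reference calls. A nearest call of 160 to 200 bp was found for 22.6% to 41.4% of long calls and for 13.9% to 20.7% of reference calls. Its position was offset by a median of 50 to 62 bp, against 41 to 48 bp at reference calls. The reverse votes also recurred: where the other library listed a call nearby, that call had more reverse votes in 72.1% to 85.5% of cases at long calls and in 48.1% to 50.3% at reference calls.

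**Figure D5:**
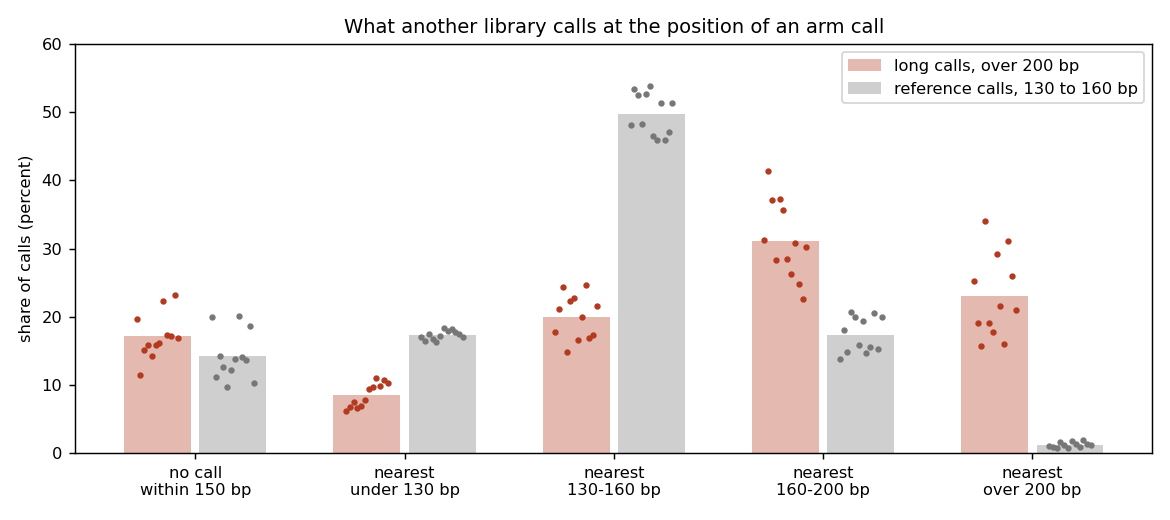
Share of calls (percent, vertical axis) by what another library lists within 150 bp (horizontal axis), for long calls and reference calls; points are the 12 ordered pairs of libraries, which share libraries and are not independent, and bars are their means. A long nearest call is found for 15.8% to 34.1% of long calls and 0.783% to 2.01% of reference calls.

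Joined across libraries, the long calls formed 21258 loci. A long call stood in 1 library at 75.04% of them, in 2 at 16.9%, in 3 at 5.68% and in all 4 at 2.41%, or 512 loci. Both Ler libraries and no top1a-2 library had a long call at 1220 loci (5.74%), and both top1a-2 libraries and no Ler library at 274 (1.29%). At a further 2094 loci 1 library of each genotype had one. Since Ler had more long calls to begin with, these counts are descriptions of the lists. Beyond 15 Mb lay 67.6% of all loci.

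Loci found in more libraries held larger, sharper and better scored calls. A library counted at a locus only if its own call there exceeded 200 bp. Calls just over that border could more easily miss it in another library, so the order in size is not independent of the rule. In Ler replicate 1 the median size was 211.5 bp at loci of that library alone and 243.9 bp at loci of all 4, the mean fuzziness 42.8 and 39.6 bp, and the median score 1.10 and 1.56. In top1a-2 replicate 1 the sizes were 211.1 and 225.8 bp, the fuzziness 43.2 and 39.8 bp, and the score 0.646 and 1.71. More reverse than forward votes were listed for 72.9% of the calls of top1a-2 replicate 1 at loci of its own and for 94.4% at loci of all 4. The order from 1 to 4 libraries was the same for size and score in all libraries. The share of these calls beyond 15 Mb rose with it, from 69.3% to 87.0% in Ler replicate 1 and from 55.0% to 86.0% in top1a-2 replicate 1, and its part in the result was not tested.

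Of the loci with long calls in all 4 libraries, 357 had their 4 positions within 150 bp, with a median span of 73 bp. The highest summed score was at 8065264 to 8065287 on chromosome 5, where the sizes were 358.1 and 270.3 bp in Ler and 350.9 and 280.6 bp in top1a-2 and 98.3% to 99.6% of the votes were on the reverse strand. The second was at 9515168 to 9515197 on chromosome 1, with sizes of 284.5 to 313.9 bp, a fuzziness of 40 to 42 bp and scores of 14.7 to 18.2. It was unlike the first and the third in having votes on both strands, 55.9% to 63.0% of them reverse, and its nearest neighbour was 544 to 788 bp away. The third, at 7075933 to 7076052 on chromosome 3, had 91.3% to 98.1% reverse votes and sizes of 231.0 to 330.0 bp.

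Where only Ler had a long call, a mutant call within 150 bp could not exceed 200 bp, because the pairs were chosen so. Of 2532 pairs of long calls shared by both Ler libraries, 1222 (48.3%) had no long call in the mutant within 150 bp. Of these, 74.96% had 1 call of top1a-2 replicate 1 within 150 bp, 64.5% had a nearest call of 160 to 200 bp, and 10.6% had none. In top1a-2 replicate 2 the shares were 73.7%, 54.6% and 15.4%. Among all long calls of Ler replicate 1, a nearest call of 160 to 200 bp was listed for 41.4% in top1a-2 replicate 1 and 37.2% in top1a-2 replicate 2. Among those of Ler replicate 2 the shares were 37.3% and 35.7%. All long calls include those whose nearest mutant call was long, 19.1% and 15.8% for Ler replicate 1 and 19.2% and 17.8% for Ler replicate 2. Leaving such calls out raises the share of 160 to 200 bp by itself, so these shares cannot be compared directly with those of the pairs. Of 1080 pairs shared by both top1a-2 libraries, 275 (25.5%) had no long call in Ler within 150 bp. Of these, 25.8% had no call in Ler replicate 1 and 25.5% none in Ler replicate 2. A nearest call of 160 to 200 bp was listed for 38.2% and 37.5% of them. At the second named locus of Ler alone, 24585234 to 24585303 on chromosome 1, the sizes were 200.7 and 204.6 bp in Ler and 185.7 and 185.2 bp in top1a-2. The best scored locus of Ler alone was at 6959165 on chromosome 2, with 437.0 and 420.1 bp and reverse votes only in both Ler libraries. The mutant libraries listed calls of 11.9 and 10.7 bp there, 24 and 38 bp away, with scores of 18.7 and 14.7.

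Of the named loci of top1a-2 alone, the first and the third rested on the distance used and the second on the size limit. The first, at 1106 and 1107 on chromosome 2, held calls of 301.7 and 292.2 bp with 1.33% and 3.25% reverse votes. The nearest Ler calls lay 154 and 152 bp away, just outside the window, and that of Ler replicate 2 was itself long at 278.5 bp with 96.4% reverse votes. The second, at 21420392 and 21420408 on chromosome 1, had 251.8 and 202.1 bp in top1a-2 and calls of 189.7 and 194.0 bp in Ler, 4 and 73 bp away. The third, at 15855630 and 15855664 on chromosome 5, lay in the stretch of the longest runs, with long Ler calls 188 and 225 bp away. At the first and the third of these loci Ler thus had a long call nearby in at least 1 library.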

How the data were processed

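Nucleosome calls of 4 libraries, 2 of Ler and 2 of top1a-2, were analysed. Libraries were grouped by the sample titles and the series' design text. Per the file headers, the deposited lists give for each call a position, a fuzziness and a size (a signal in bp that is never negative), a confidence score, and forward and reverse votes, also a score with no stated unit. No source used here names the aligner, caller, filters, genome build or origin of counting, so positions are printed as listed, and no genes or sequences are given. No read counts were used, so depth is unknown and no counting interval is given.

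The members and lists were chosen with earlier results of these data known. Neighbours are the adjacent calls of the same list. Calls of another library were sought within 150 bp, and loci join long calls of different libraries within that distance of each other. Pair counts for a genotype take mutual nearest long calls, so they differ slightly from counts of loci. Named loci were the 3 with the highest summed score among loci with long calls in all 4 libraries spanning up to 150 bp, and the 3 of each genotype alone. Named windows were the 3 highest and 3 lowest of 100 kb by mean share. Each library is the replicate. Genotypes were compared over the 6 assignments of the labels by an exact permutation test (two-sided), and values paired within a library with the exact sign-flip test over 4 libraries. Benjamini-Hochberg adjustment covered 13 tests. The scripts were checked on simulated lists. Alternatives changed the size limit (180 and 220 bp), the score filter, the reference sizes, the distance, the pericentromere border, the replicates and the replicate block. The classes of position, the removal of calls with votes on 1 strand, equal numbers of calls, arms near the middles and weighting to 1 Mb bins were chosen after seeing the data. Python 3.11.15, numpy 2.4.6 and pandas 2.3.3 were used.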

Additional observations from a re-analysis of the deposited data

Results flagged for a closer look

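For calls over 250 bp, the 2 genotypes moved opposite ways from their reference calls, and every library of a genotype moved the same way. The median score of these calls minus that of the reference calls was 0.572 and 0.612 in Ler and -0.533 and -0.567 in top1a-2, a difference of -1.14 between genotypes. Their medians were 1.41 and 1.42 in Ler and 0.299 and 0.225 in top1a-2. The summed votes did the same, with 0.211 and 0.253 in Ler and -0.112 and -0.131 in top1a-2, a difference of -0.354. The exact permutation test gave p = 0.333 for each, the smallest it allows. Calls with over 90% of their votes on 1 strand made up 34.3% and 30.9% of the calls over 250 bp in Ler and 66.7% and 60.9% in top1a-2, and the part of this in the result was not tested. Above 300 bp the opposite movement was gone: the median score was 0.288 and 0.201 in Ler and 0.200 and 0.123 in top1a-2, and the summed votes 0.0197 and 0.0142 in Ler, all below the reference calls.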

How the results depend on the processing

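Over 275 recomputed values of 18 results, 265 kept their direction and 10 reversed, and no p crossed 0.05, which the design does not allow. The genotype difference in the long share reversed in the first 5 Mb (0.192 points). It was -0.965 to -1.70 points when 1 library was left out, -2.11 above 180 bp and -0.662 above 220 bp. The genotype difference in fuzziness, 0.165 bp, had no stable direction over all alternatives. It was -0.0725 bp above 180 bp, -0.520 bp in the first 5 Mb and -0.477 bp at 5 to 15 Mb. When 1 library was left out it was -0.275 to 0.605 bp (-0.275 bp without Ler replicate 1, -0.164 bp without top1a-2 replicate 2). It was 1.78 bp once calls on 1 strand were removed. With equal numbers of the highest-scoring calls it was 1.36 bp, and without low scores 0.978 bp. In these last cases top1a-2 was higher without overlap. The excess of long calls with no call in another library was -1.36 points without low scores. The median score of long minus reference calls, 0.269, was -0.528 in the first 5 Mb and -0.0483 at 5 to 15 Mb, a mean of higher values in Ler and lower ones in top1a-2. The nearer distance, 49 bp, was -7.25 bp in the first 5 Mb, which rests on Ler replicate 2. The cause of these changes was not tested. Same-numbered libraries are not said to share more than a number, and their deviations correlated at 0.0870 over 918 windows. Some values nevertheless went with the number. The median size of arm calls was 144.9 bp in Ler and 144.7 bp in top1a-2 for replicate 1, and 142.7 and 142.9 bp for replicate 2. More reverse votes were listed for 49.0% and 49.1% of reference calls for replicate 1, and for 50.8% in both genotypes for replicate 2. Whether same-numbered libraries share a batch was not tested. With a replicate block the difference in the long share stayed -1.33 points, with an exact permutation p = 0.5, the smallest that 2 blocks give. Read depth is unknown, and the number of libraries limits every comparison of genotypes.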
